A study of Mus musculus with 4 samples.

Results

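Macrophage and general leukocyte genes were followed in RNA sequencing of mouse female germline stem cells, an ovary-derived cell culture studied for its germ cell properties. The set held 10 genes given by name, out of 32812 genes with a symbol and 53291 features in all: Lyz2, Csf1r, Cd68, Adgre1, Tyrobp and C1qa as macrophage genes, and Ptprc, Coro1a, Laptm5 and Cst7 as genes of leukocytes more broadly. Their rows were found by RefSeq accession and summed per gene. The rule lists them by name and uses no measured value, but they were chosen with earlier results of these data known. All 4 libraries came from cells of C57BL/6 background at over 20 passages. There were 2 libraries of control cells and 2 of cells given SPD, which the series title names as spermidine, profiled at 4 h. The sources used here do not give the dose. The labels do not say whether replicates were separate cultures. P-values therefore measure the spread between these 4 libraries alone, and it may be technical. The comparison asks how leukocyte transcripts stood in a culture labelled as germline, with and without spermidine.

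Leukocytes share a set of surface, cytoskeletal and lysosomal proteins that other lineages mostly lack. Macrophages add the receptor for colony stimulating factor 1, on which their survival depends, phagocytic and complement proteins, and a large lysosomal compartment. The ovary holds resident macrophages, which clear degenerating follicles and corpora lutea. In bulk RNA, fewer cells of a type and less RNA per cell cannot be told apart.

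Depth was 7206176 and 7128901 counts in control replicates 1 and 2, and 787600 and 1718944 in spermidine replicates 1 and 2. Paired values follow this order of replicates. One feature, AY036118, took 1.64% to 1.68% of control counts and 29.6% to 30.7% of spermidine counts. Levels are therefore given as scaled CPM, the depth-normalised count usual in RNA sequencing, with library sizes adjusted by the TMM method. Counts on olfactory and vomeronasal receptor genes, which should be silent here, came to 3.18 per kb in spermidine replicate 1 and to between 0.0634 and 0.176 per kb in the other libraries. Across genes, log2 CPM correlated at 0.969 between controls and at 0.732 between spermidine libraries. Of 8 germline markers, Ddx4 and Dazl, with 11.4% and 12.7% of exon bases their own, had 1 and 3 counts in all, while Tex19.1 had 1955 and 1770 in the controls. The list summed to 291 and 276 CPM in controls and 162 and 351 with spermidine. Tex19.1 alone gave 283 and 256 CPM of the control sums, and 41.2 and 17.8 CPM with spermidine. In the tests described below, 5 genes of the list were tested. Tex19.1 was called lower with spermidine and the other 4 higher. Of those 4, 3 cleared the filter on low counts through the spermidine libraries alone.

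Which members could be measured was set by how the deposited table was built. Its rows are single transcripts and, judged by its values, a read that fell on exons of more than 1 row was not counted, so a gene is visible only where 1 row alone covers a base (a base of its own). Cst7, Lyz2, Tyrobp and C1qa had 1 row each, with all 986, 1057, 569 and 1082 exon bases their own. Cd68 had 434 of 1247 exon bases of its own (34.8%) and Coro1a had 476 of 2134 (22.3%). The remaining members were close to invisible: 196 of 5876 bases for Ptprc over 9 rows, 85 of 2547 for Laptm5, 18 of 3875 for Csf1r and 2 of 3280 for Adgre1. Among genes with a symbol, 32.2% had fewer than 300 own bases, and of these 10 it was 4. Adgre1, Csf1r and Laptm5 had 0 counts in every library, and Ptprc had 3, all in spermidine replicate 1. These zeros carry no limit on expression, because reads on shared exons were left out. A further 5 rows without a symbol lie over the Csf1r exons and held 1 count in all.

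**Figure D1:**
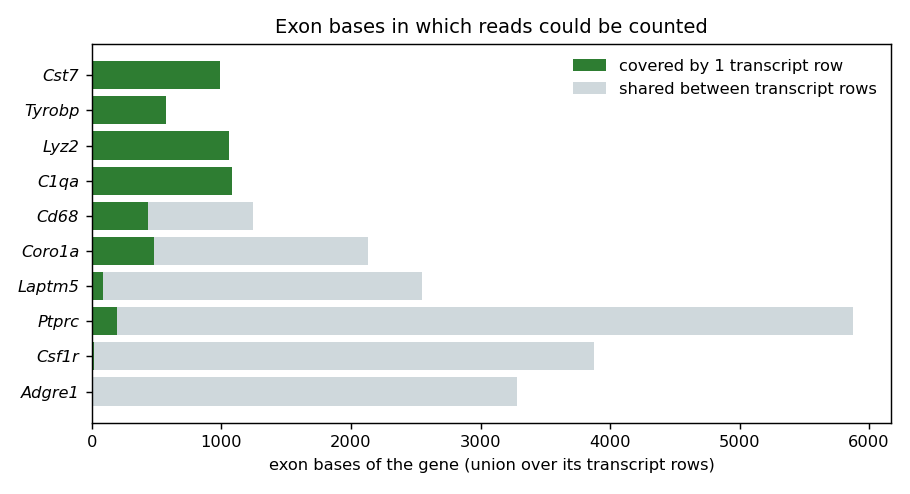
Exon bases of each member (x axis, bases, union over its transcript rows), split into bases covered by 1 deposited transcript row (green) and bases shared between rows (grey). Cst7, Tyrobp, Lyz2 and C1qa were fully readable, Cd68 and Coro1a in part at 34.8% and 22.3%, and Laptm5, Ptprc, Csf1r and Adgre1 at 3.34% or less.

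Upstream sequence is shown for the members with the most counts that have an entry in the RefSeq promoter table of GRCm38.p6, because Cst7 and Lyz2 lay on opposite sides of the comparison below. Of the 10 members, 6 had an entry, with 8 promoters; Csf1r, Adgre1, Tyrobp and C1qa had none. Letters run 5′ to 3′ on the gene's strand and stop before the first annotated exon base. Capitals mark matches to GAGGAA, the core bound by the myeloid factor PU.1, or to TTGCNNAA, a core of C/EBP sites, searched on both strands without overlap between the motifs. The Cst7 stretch is chr2:150570165-150570414 (plus strand), that of Cd68 chr11:69666171-69666420 (minus strand) and that of Lyz2 chr10:117282322-117282522 (minus strand).
Cst7: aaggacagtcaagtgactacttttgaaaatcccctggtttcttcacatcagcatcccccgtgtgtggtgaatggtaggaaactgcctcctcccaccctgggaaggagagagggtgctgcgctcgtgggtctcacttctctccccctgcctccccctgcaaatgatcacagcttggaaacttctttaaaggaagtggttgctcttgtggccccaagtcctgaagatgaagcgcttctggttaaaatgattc
Cd68: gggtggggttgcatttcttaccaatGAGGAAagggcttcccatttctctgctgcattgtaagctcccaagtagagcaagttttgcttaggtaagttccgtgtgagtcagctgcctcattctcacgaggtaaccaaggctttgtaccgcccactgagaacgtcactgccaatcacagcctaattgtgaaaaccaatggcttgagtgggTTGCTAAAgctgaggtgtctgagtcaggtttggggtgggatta
Lyz2: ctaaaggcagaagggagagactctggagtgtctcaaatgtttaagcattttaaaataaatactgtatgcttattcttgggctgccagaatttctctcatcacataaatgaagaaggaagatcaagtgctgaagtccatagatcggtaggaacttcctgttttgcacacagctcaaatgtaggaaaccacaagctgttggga
In the 250 bases before the start, GAGGAA was found in 3 of the 8 promoters (1 each of Cd68, Laptm5 and Ptprc). TTGCNNAA was found in 1, that of Cd68. Among all 32851 promoters of the table, 23.3% held GAGGAA and 9.56% held TTGCNNAA. Neither motif was found in the windows of Cst7, Lyz2 or Coro1a, which says only that these letters are not there.

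Between the groups the readable members split. Cst7 fell with spermidine, Lyz2 and C1qa rose, and Cd68, Tyrobp and Coro1a did not pass the test. Of the 10 members, 6 had enough counts to be tested, 5 of them with groups that did not overlap (2 higher and 3 lower with spermidine). Over all tested genes 66.2% did not overlap, 36.6% higher and 29.6% lower. Tests were edgeR's quasi-likelihood F tests, with p-values adjusted by Benjamini-Hochberg over all 7836 tested genes and calls made at an adjusted p under 0.05. By these, 2 members were higher and 1 was lower, where 28.8% of tested genes were called, 24.8% higher and 3.99% lower. The median log2 fold change of the 6 was -1.0, against 0.23 over all tested genes. C1qa cleared the filter on low counts through its spermidine libraries alone, so it had to be higher there. Its call therefore carries no support of its own. Without control replicate 1 no gene of the 7836 was called (1926 at an unadjusted p under 0.05), so no member was.

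Cst7 encodes cystatin F, a leukocyte inhibitor of lysosomal cysteine proteases whose known targets include cathepsin C. The gene lies on the plus strand of chromosome 2 from 150570415 to 150578944 (GRCm38) in 4 exons. It had 6109 and 4813 counts in the control libraries and 63 and 26 in the spermidine libraries. Scaled, this was 791 ± 134 CPM in controls and 45.3 ± 37.9 CPM with spermidine (SD, n = 2 each). Both spermidine libraries lay far below both controls, with spermidine replicate 1 the higher of its pair. The log2 fold change was -4.19 ± 0.74 (SE), with an adjusted p of 0.00679 in edgeR. The value ran from -5.42 without spermidine replicate 1 to -3.40 without replicate 2, and the call was lost without control replicate 1 (adjusted p = 0.075 in edgeR). Per kb of own bases, the level of Cst7 exceeded that of 99.2% and 99% of 14159 readable protein-coding genes in the controls, and of 95.4% and 80.7% with spermidine.

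Lyz2 encodes lysozyme, the bacterial wall-cleaving enzyme that macrophages and granulocytes make in quantity. Its 4 exons lie between 117277541 and 117282272 on chromosome 10, minus strand. It had 81 and 49 control counts and 239 and 190 with spermidine, despite the lower depth. The scaled level went from 9.41 ± 3.29 to 204 ± 97.6 CPM (SD, n = 2 each), a log2 fold change of 4.43 ± 0.67 (edgeR adjusted p = 0.00496). The groups did not overlap, and the counts stood above the 3.37 that the receptor background would give over the gene's length in spermidine replicate 1. The call was lost without control replicate 1 (adjusted p = 0.075 in edgeR) and without spermidine replicate 1 (0.0593, log2 fold change 3.84). The close relative Lyz1, with which reads could be shared, had 12 counts, all in spermidine replicate 1.

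C1qa encodes the A chain of C1q, the recognition part of the first complement component, made mainly by tissue macrophages. Its 3 exons lie between 136895916 and 136898844 on chromosome 4, minus strand. It had 15 and 2 control counts and 44 and 52 with spermidine, or 1.23 ± 1.33 and 43.7 ± 9.4 CPM (SD, n = 2 each). The spermidine libraries were close to each other, while the controls differed 7.51-fold in scaled level. The log2 fold change was 5.10 ± 0.93 (edgeR adjusted p = 0.00721), and the value depended on the controls: 7.12 without control replicate 1 and 4.29 without control replicate 2. The call was lost in both of those fits (adjusted p = 0.075 and 0.057 in edgeR) and without spermidine replicate 1 (0.0522). With controls thinned to the spermidine depth the value was 6.89 (adjusted p = 0.00925). The B chain gene C1qb had 26 and 0 control counts against 74 and 40, and it rose by 4.84 ± 1.14 on the log2 scale (edgeR adjusted p = 0.0124). Control replicate 1 was the higher control for both chains. Both genes cleared the filter on low counts through the spermidine libraries alone, so neither call carries support of its own.

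**Figure D2:**
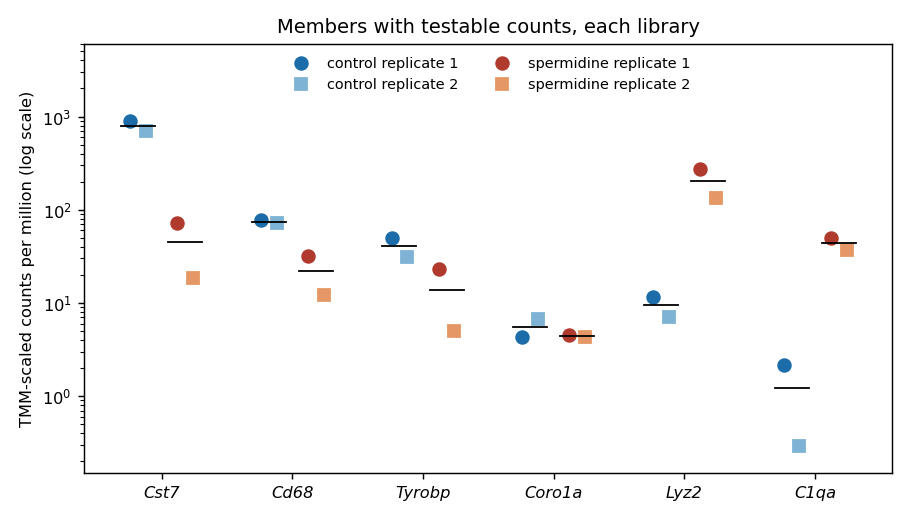
TMM-scaled CPM (log axis) of the 6 tested members in each library; black bars are group means of 2 libraries. Cst7 sits lower and Lyz2 and C1qa higher in both spermidine libraries than in both controls, and the Coro1a groups overlap.

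Cd68 encodes macrosialin, a heavily glycosylated protein of macrophage lysosomes. It lies between 69664213 and 69666170 on chromosome 11, minus strand. It had 529 and 494 control counts against 28 and 17, or 74.1 ± 3.66 and 22.1 ± 14.1 CPM (SD, n = 2 each). Its log2 fold change of -1.82 ± 0.68 did not pass (edgeR adjusted p = 0.0777), although both spermidine libraries lay below both controls. Leaving out spermidine replicate 2 gave -1.15, and leaving out replicate 1 gave -2.61.

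Tyrobp encodes DAP12, the adaptor that passes signals from activating receptors of myeloid and natural killer cells to the kinase Syk. It lies between 30413788 and 30417582 on chromosome 7, plus strand. Counts were 345 and 216 in controls and 20 and 7 with spermidine, or 40.6 ± 13.3 and 13.9 ± 12.6 CPM (SD, n = 2 each). Groups did not overlap, but the log2 fold change of -1.68 ± 0.84 did not pass (edgeR adjusted p = 0.172). Tyrobp ranged from -0.78 without spermidine replicate 2 to -3.02 without replicate 1.

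Coro1a encodes coronin 1A, which binds actin in leukocytes and coats phagosomes. Its position is 126699774 to 126704816 on chromosome 7, minus strand. It had 30 and 46 control counts against 4 and 6, or 5.5 ± 1.63 and 4.42 ± 0.214 CPM (SD, n = 2 each), and these overlapped. Its log2 fold change was -0.32 ± 0.88 (edgeR adjusted p = 0.815), and 0.02 without control replicate 2. Of its 4 transcript rows, 2 held nearly all counts, 58 and 27 over the 4 libraries, on 252 and 202 own bases. The other two had 21 and 1 own bases and 1 and 0 counts, so the value of Coro1a does not describe the whole gene.

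The make-up of the set differed as well as its level. Of the members' counts in the controls, Cst7 supplied 85.9% (exact Clopper-Pearson 95% limits 85.1 and 86.7) and 85.6% (84.7 to 86.5). Its share was 15.7% (12.3 to 19.6) and 8.72% (5.78 to 12.5) in the spermidine libraries. There Lyz2 was the largest, with 59.6% (54.6 to 64.4) and 63.8% (58 to 69.2), against 1.14% (0.906 to 1.41) and 0.872% (0.646 to 1.15) in controls. Cd68 supplied between 5.7% and 8.79% in each of the 4 libraries. These intervals cover counting error only. The shares are of counts on readable bases, so Csf1r, Adgre1, Laptm5 and Ptprc hardly enter and Cd68 and Coro1a enter in part. As shares of a total, they are not independent: a lower share of Cst7 raises the others.

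Ordered by scaled level per kb of own bases, the controls ran Cst7 (898 and 706), Cd68 (177 and 165), Tyrobp (87.9 and 54.9), Coro1a (9.13 and 14), Lyz2 (11.1 and 6.71) and C1qa (2.01 and 0.267). Coro1a and Lyz2 overlapped, and the other neighbours did not. With spermidine the order per kb began with Lyz2 (259 and 128). Cst7 (73.1 and 18.8), Cd68 (73.8 and 27.9), C1qa (46.5 and 34.2) and Tyrobp (40.2 and 8.76) came below it, each overlapping its neighbours, and Coro1a (9.61 and 8.97) overlapped Tyrobp. The readable bases of Cd68 and Coro1a lie next to shared ones, where reads were lost, so their levels per kb are low estimates.

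Other general leukocyte genes were called in 1 direction, lower with spermidine, and most of those tested were not called. Of 47 such genes, 20 were tested, 8 were called lower and 0 higher, beside 3.99% and 24.8% of all tested genes; over the list the median log2 fold change stood at -2.05 (-1.98 with low-count genes at their bound) against 0.23. Plek, the leukocyte and platelet protein pleckstrin, had 7913 and 5844 control counts against 82 and 58, a log2 fold change of -3.91 ± 0.65 (edgeR adjusted p = 0.00608). Was, which drives actin branching and is mutated in Wiskott-Aldrich syndrome, had 1952 and 2125 against 59 and 25 (-2.85 ± 0.69, adjusted p = 0.0144). The surface protein gene Cd48 had 376 and 399 against 7 and 0, from 538 own bases, and was called lower (adjusted p = 0.0189). The tetraspanin gene Cd53 (-2.76), the GTPase gene Rac2 (-1.99), Arhgap30 (-2.11), Hcls1 (-2.18) and Nckap1l (-2.40) made up the rest. Of the 8, only Cd48 cleared the filter on low counts through the control libraries alone, so its call carries no support of its own. Arhgdib, Ptpn6, Evi2a and Dok3 cleared it in the same way. They were not called, but they are part of the median. Calls of lower genes on this list numbered 0 without control replicate 1 and 1 without control replicate 2, where 0% and 0.868% of all tested genes were called lower. They numbered 4 without spermidine replicate 1 and 10 without spermidine replicate 2, beside 0.408% and 15.4% of all genes. With controls thinned to the spermidine depth 1 was called, beside 2.32%. Of the 47 genes, 7 had 0 counts throughout, among them Spi1, which encodes PU.1, with 407 own bases.

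Other macrophage genes were called only in the opposite direction. Of 37, 9 were tested, 6 were higher and 0 lower, beside 24.8% and 3.99% of all tested genes. The median was 4.02, also with low-count genes at their bound, against 0.23 over all tested genes. All 6 cleared the filter on low counts through the spermidine libraries alone, so they had to be higher there, and the count and median carry no support of their own. Lyve1, a hyaluronan receptor of tissue macrophages and lymphatic vessels, had 2 and 3 control counts against 18 and 44 (log2 fold change 6.07 ± 0.96, edgeR adjusted p = 0.00457). Mrc1, the mannose receptor, had 7 and 6 against 35 and 26 (4.86 ± 0.93, adjusted p = 0.00749). Mrc1 has 5318 own bases, over which the receptor background of spermidine replicate 1 would give 16.9 counts. Mertk, a receptor for dying cells, had 2 and 0 against 10 and 9 and was called higher (adjusted p = 0.00796). The same background would give 8.3 counts for Lyve1 and 4.93 for Mertk in spermidine replicate 1. In spermidine replicate 2 it would give 0.46 and 0.273. The Fc receptor gene Fcgr1 went the other way without passing: 221 and 412 control counts against 24 and 13, log2 fold change -1.41 ± 0.77 (adjusted p = 0.209 in edgeR). Calls of higher genes numbered 0 without control replicate 1 and 3 without control replicate 2, beside 0% and 18.4% of all genes. They numbered 1 without spermidine replicate 1 and 6 without spermidine replicate 2, beside 5.77% and 32.1%. Genes at 0 in every library numbered 9, among them Cd163, Trem2, Cybb, Itgam and Aif1, each with 74 or fewer own bases.

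Genes that work with the members are given next. The 2 called higher among them, Ctsl and Laptm4b, cleared the filter on low counts through the spermidine libraries alone, so they had to be higher there. Fcer1g, the Fc receptor gamma chain and counterpart of Tyrobp, fell from 1799 and 1186 counts to 35 and 23 (log2 fold change -3.00 ± 0.66, edgeR adjusted p = 0.00965). Plcg2, a phospholipase downstream of Syk, fell by 2.09 on the log2 scale (adjusted p = 0.0273 in edgeR), and the adaptor gene Hcst had -0.36 ± 0.96. In this list of 16 genes 3 were tested and 8 had 0 counts, among them Trem1 and Clec5a, receptors that pair with DAP12, with 207 and 75 own bases. Ctsc, the cathepsin C gene, fell by 2.92 from 8197 and 7765 counts to 170 and 160 (adjusted p = 0.00755), whereas Ctsl rose by 4.64 (adjusted p = 0.00755). Cst3, the widely expressed cystatin C gene, had 1.09 ± 0.60 (adjusted p = 0.209). Ptprcap, whose product binds the phosphatase made from Ptprc, fell from 3754 and 5394 counts to 177 and 60 (-2.46 ± 0.75, adjusted p = 0.037), and Lgals1, a lectin that binds it, fell by 1.75 (adjusted p = 0.0402). Of the coronins, Coro7 fell by 1.78 (adjusted p = 0.0477) and Coro1c had -1.55 ± 0.51 (adjusted p = 0.0529). Laptm4b, related to Laptm5, rose by 5.40 from 13 and 32 counts to 56 and 294 (adjusted p = 0.00554). Csf1 and Il34, the ligands of the Csf1r product, could not be tested, with 19 and 0 counts in all from 246 and 24 own bases, and Csf2rb2, an interleukin 3 receptor subunit gene, fell by 3.02 (adjusted p = 0.0223).

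Complement genes beyond C1qa went in both directions: of 15, 7 were tested, 4 were higher and 2 lower, beside 24.8% and 3.99% of all tested genes. C2, a protease of the C3 convertase, had 2 and 3 control counts against 74 and 53 (log2 fold change 7.25 ± 0.93, edgeR adjusted p = 0.00288). C1ra, a protease of the C1 complex, rose by 4.47 (adjusted p = 0.00564). C3ar1, the C3a receptor of myeloid cells, fell by 2.36 and Cfp, the leukocyte protein properdin, by 2.14 (adjusted p = 0.0234 and 0.0242). The 4 called higher cleared the filter on low counts through the spermidine libraries alone, so they had to be higher there.

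**Figure D3:**
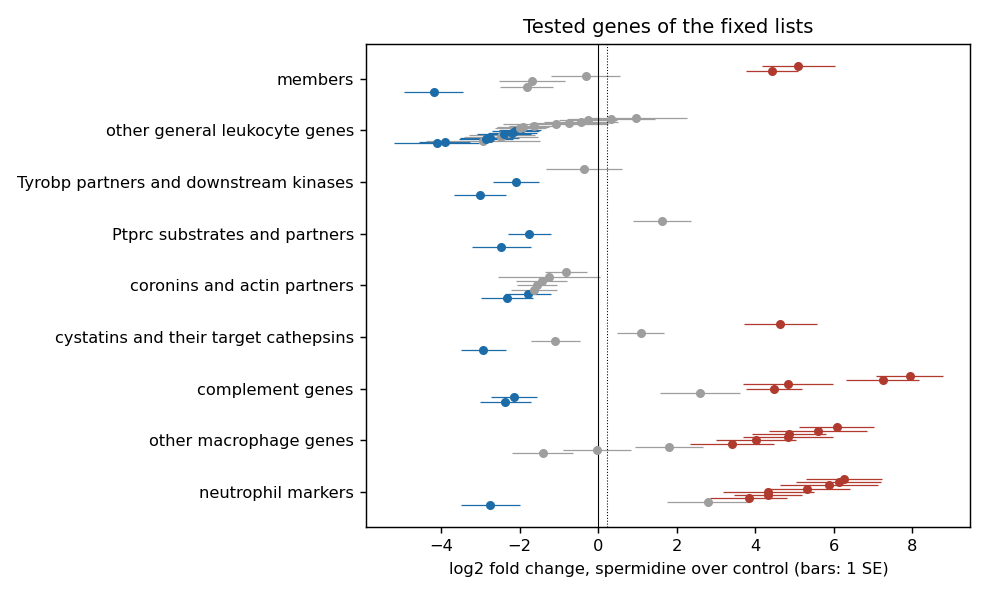
Log2 fold change of spermidine over control (x axis, bars 1 SE) for tested genes of the members and 8 related lists; red was called higher, blue lower and grey not called, and the dotted line is the median of all tested genes, 0.23. The general leukocyte list had 8 called lower and 0 higher, and the macrophage list 6 higher and 0 lower. All 6 cleared the filter on low counts through the spermidine libraries alone, and Cd48 among the 8 through the controls alone.

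Markers of other cells moved with these results, and their part in them was not tested. Neutrophil granule genes were called higher for 7 of 9 tested and lower for 1, beside 24.8% and 3.99% of all tested genes. Those that rose included Ngp (1 and 16 counts against 114 and 92) and Ltf (0 and 13 against 85 and 58). Ctsg, a protease of granulocyte precursors and mast cells, fell by 2.74. The list's summed level was 433 and 506 CPM in controls and 567 and 253 with spermidine, and S100a9, Ly6g and Csf3r had 0 counts on 3, 36 and 305 own bases. Of these sums, Ctsg alone gave 431 and 491 CPM in controls and 120 and 22.8 CPM with spermidine. All 7 genes that rose cleared the filter through the spermidine libraries alone. Mast cell and basophil markers summed to 351 and 234 CPM in controls against 99.5 and 22.1, with 2 of 3 tested genes called lower (Cpa3 with a log2 fold change of -3.79 and Gata2 with -2.84) and Fcer1a and Ms4a2 at 0 on 26 and 131 own bases. Megakaryocyte markers summed to 837 and 684 CPM against 184 and 106, nearly all of it Itga2b, which fell by 2.61. Dendritic cell markers summed to 7.39 and 10.1 against 126 and 35.6, with the class II genes H2-Aa, H2-Ab1 and H2-Eb1 called higher. These 3 also cleared the filter through the spermidine libraries alone. Zbtb46 was not called (0.37), and Ciita had 0 counts on 608 own bases. Flt3, Xcr1 and Cd209a had 18, 18 and 7 counts in spermidine replicate 1 and 0, 1 and 0 in spermidine replicate 2. The receptor background of spermidine replicate 1 would give them 11.9, 14.2 and 4.73 counts. T cell markers (0 and 26.6 against 28.6 and 22.8 CPM) and natural killer cell markers (15.4 and 41.2 against 45.7 and 29.2) overlapped between groups. B cell markers stood out in 1 library: 406 CPM in spermidine replicate 1, with 122 counts of Vpreb1, 87 of Igll1 and 80 of Cd79a, against 13.5 in spermidine replicate 2 and 1.3 and 1.88 in controls. The lists of oocyte, granulosa and theca, and stroma markers summed to 1.45 to 2.75, 134 to 162 and 71.4 to 133 CPM in controls. With spermidine they reached 162 and 2401, 2332 and 7016, and 2078 and 11126 CPM.

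**Figure D4:**
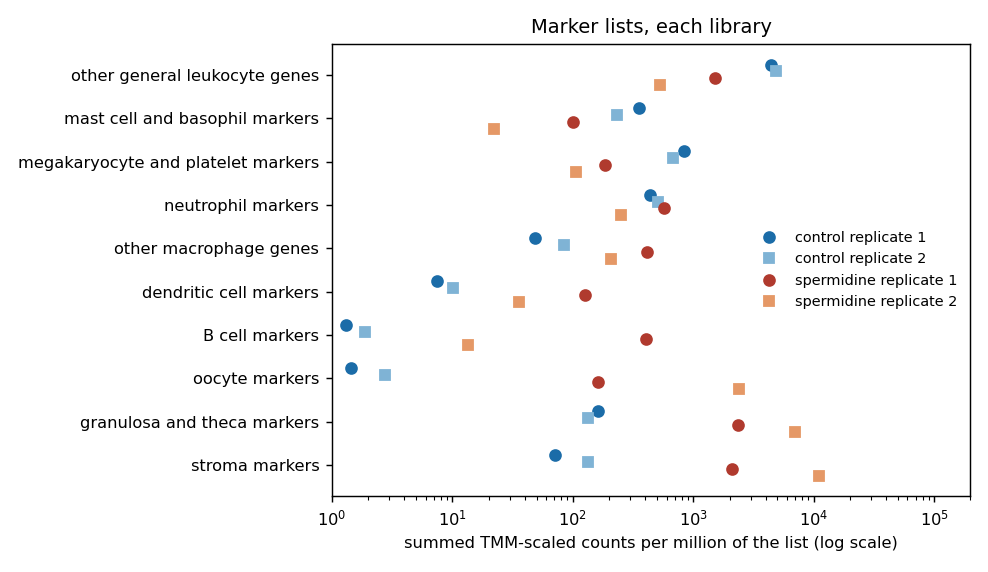
Summed TMM-scaled CPM (x axis, log scale) of each marker list in each library. General leukocyte, mast cell and megakaryocyte lists sit lower in both spermidine libraries, macrophage, dendritic cell and ovarian lists higher, and the B cell list is at 406 in spermidine replicate 1 alone. The receptor background, highest in spermidine replicate 1, is not subtracted.

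The spermidine libraries differed from each other in the levels of the members. All 6 tested members were higher in spermidine replicate 1 than in replicate 2 after scaling, by 1.07-fold (Coro1a) to 4.59-fold (Tyrobp), with Cst7 at 3.89, Cd68 at 2.65, Lyz2 at 2.02 and C1qa at 1.36. The same held for 20 of 20 tested general leukocyte genes, 7 of 9 macrophage genes and 9 of 9 neutrophil genes, but for 1 of 2 T cell genes, 1 of 2 natural killer cell genes and 1 of 3 partners of Ptprc, where 52.1% of all tested genes were higher in replicate 1. It held for 0 of 6 oocyte genes, 2 of 8 granulosa and theca genes and 1 of 8 stroma genes. Members that rose and members that fell against the controls were thus both more abundant in spermidine replicate 1, the library with fewer ovarian marker counts and the higher receptor background. The part of either in this difference was not tested.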

How the data were processed

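RNA was measured in 4 libraries of cultured cells, 2 control and 2 spermidine. The deposited table holds counts per RefSeq transcript row, not normalised, per the file headers. HISAT2, DESeq2 and the build mm9 are named, without roles or versions, per the submitters' processing notes. The sources used here do not name the counting program or say whether it used strand; per the labels' protocols, 1 of the 2 library kits named keeps strand. Of 106519 rows, 86040 (80.8%) matched a symbol in the RefSeq table of GRCm38, and 88.5% of those lay within their gene's GRCm38 span, so positions are given as GRCm38. Unmatched rows, kept as features, held 1.13% to 4.45% of counts. Rows whose every base was shared numbered 49975 and took at most 0.0014% of any library.

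Counts were summed per gene, filtered (filterByExpr by group, minimum count 10 and minimum total 15) and scaled with TMM. Tests used edgeR 4.0.16 in R 4.3.3 (estimateDisp, then glmQLFit with legacy = FALSE and glmQLFTest), group as the only term. Adjustment was by Benjamini-Hochberg over all tested genes, with calls under 0.05. SE is the log2 fold change over the root of the F statistic. The procedure was tested on simulated data. A floor of 3 counts over a group set bounds in list medians. Fits without 1 library used the gene set of the full fit and took the single library left in a group to vary as the opposite group does. Members and lists were chosen with earlier results of these data known. All members were named, with up to 3 called genes of smallest p per direction of each related list; further genes were named after seeing their values. One gene that this rule names is not reported here. Alternatives were RLE, upper-quartile and total scaling, no filter, DESeq2 1.42.0, a replicate block, controls thinned to 1253272 counts, each library left out and, added after the data were seen, edgeR's legacy test.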

Additional observations from a re-analysis of the deposited data

How the results depend on the processing

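The calls of Lyz2 and C1qa (higher) and Cst7 (lower) held with RLE, upper-quartile and total scaling, DESeq2, the legacy test, thinned controls and the replicate block, and Cd68, Tyrobp and Coro1a were called in none of the settings run. With no low-count filter 0 genes were called higher and 0 lower by edgeR (4255 at an unadjusted p under 0.05), with 0 members and 0 genes of either list, and adjusted p was 0.258 for Lyz2 and 0.263 for C1qa and Cst7. That setting tests 29023 features. With thinned controls 959 genes were higher and 115 lower, and 1 general leukocyte gene was lower. With library totals 4 general leukocyte genes were lower. The replicate numbers pair nothing in the labels, and deviations of same-numbered libraries correlated at -0.0299 across genes. With the replicate block 94 genes were lower against 313 without, and 3 general leukocyte genes were lower against 8; the block changed no member's call. Over fits leaving out 1 library, genes called higher ran from 0 to 2517 and lower from 0 to 1208. Members ran from 0 to 2 higher and 0 to 1 lower, macrophage genes from 0 to 6 higher and general leukocyte genes from 0 to 10 lower. The log2 fold change of Coro1a ran from -0.53 without control replicate 1 to 0.02, reversed, without control replicate 2; with thinned controls Coro1a was left out by the filter. The median of all genes was 0.23 with TMM, 0.29 with RLE, 0.37 with upper-quartile factors and 0.28 with totals. The causes were not tested. The depth of the spermidine libraries limits members with few counts there, such as Coro1a with 4 and 6; Ptprc is limited by its few own bases.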
